A study of Mus with 2 samples.

Results

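Genes that are switched on when a cell copies its DNA and divides were followed through mouse bone marrow. The set held 38 genes chosen by symbol, 18 of S phase and 20 of G2 and mitosis, out of 32285 gene rows in the count matrices. Each symbol matched exactly 1 row. Bone marrow, labelled as coming from the hindlimb, was profiled by single-cell RNA sequencing in a ground and a running group, with 1 library per group. The labels give no strain, sex, age, number of mice, running regime or duration, and do not define ground further. No difference below therefore has a replicate check, no test was possible, and all intervals are 95% intervals that cover counting error only.

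A dividing cell first loads the MCM helicase onto origins of replication, then copies its DNA with PCNA as the sliding clamp of the polymerases, and needs a supply of deoxynucleotides from ribonucleotide reductase and thymidylate synthase. In G2 and mitosis, CDK1 with cyclins A and B drives the cell into division, the aurora and polo kinases build the spindle, kinesins and kinetochore proteins move the chromosomes, and the anaphase-promoting complex with CDC20 ends mitosis. In marrow, division is concentrated in progenitors and in precursors of the neutrophil, monocyte, B and red cell lineages, whereas mature neutrophils have left the cycle for good. The genes lie on many chromosomes. In assembly GRCm38.p6, Pcna lies on chromosome 2 (132249286 to 132253180), Rrm2 on chromosome 12 (24708254 to 24714146), Mki67 on chromosome 7 (135689784 to 135716450) and Cenpf on chromosome 1 (189640606 to 189688107).

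The ground library held 9162 barcodes and 85014860 unique molecular identifiers (UMIs, 1 per captured transcript), and the running library 9473 barcodes and 79990530 UMIs. Filtering left 8666 ground cells (median 5938 UMIs) and 9080 running cells (median 5145.5 UMIs). The libraries shared 24 barcodes. Cells were clustered without the cell cycle genes and named from lineage markers, and 8 classes with at least 200 cells in each library were compared. The mature neutrophil-like cells of the 2 libraries lay largely in different clusters, since clusters 4 and 22 held 629 and 1105 ground against 22 and 91 running cells, and clusters 5 and 23 held 54 and 73 ground against 1177 and 843 running cells. These cells serve here only as the non-dividing background.

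To separate how many cells divided from how strongly a dividing cell expressed the genes, cycling cells were called from 129 other cell cycle genes, 54 of S phase and 75 of G2 and mitosis, none of them a member. Every cell was thinned to 2000 UMIs, and a cell with at least 4 UMIs of these index genes was called cycling. This call left out 908 ground and 784 running cells that were too shallow. It proved permissive, because 12.6% of ground and 11.7% of running mature neutrophil-like cells passed it, and those cells held a median of 1 UMI of the 38 members. Over all mature neutrophil-like cells, passing or not, Cks2, Hjurp and Kif23 gave 19.3%, 18.2% and 7.76% of the index UMIs. A stricter call of at least 8 index UMIs brought this background to 0.752% and 0.510% and is given beside the first.

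The members behaved as cell cycle genes in these cells. All 38 were higher in cycling than in other cells in both libraries, with median log2 ratios of 4.23 in ground and 4.30 in running for the S phase genes and of 5.39 and 5.51 for the G2 and mitosis genes. Of all cells kept, 31.3% in ground and 28.5% in running were called cycling. They held 94.4% and 94.0% of the S phase UMIs and 97.45% and 97.75% of the G2 and mitosis UMIs. Slbp, which encodes the protein that binds the stem-loop of histone mRNA, and Pcna kept the highest levels outside the cycle, with 42.9 and 46.9 CPM (UMIs of the gene scaled to the same total in each pool of cells) for Slbp and 43.3 and 51.6 CPM for Pcna in ground and running. Bub1, which encodes a kinase of the spindle checkpoint, had the lowest level outside the cycle in both libraries, with 0.945 and 0.683 CPM against 44.7 and 43.1 CPM in cycling cells.

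Each cycling cell was placed on the S side or on the G2 and mitosis side by which set of index genes had more UMIs. Every S phase member was then higher on the S side and every G2 and mitosis member on the other, in both libraries. The sets hold 54 and 75 index genes, so the share of cells on a side is not the share in that phase. On the G2 and mitosis side lay 61.0% (59.1 to 62.9) of ground and 62.0% (60.1 to 63.9) of running cycling cells. Within 10% of a tie lay 423 of 2711 ground and 357 of 2586 running cycling cells. Ung, which encodes the glycosylase that removes uracil from DNA, was the most one-sided, with 40.8 CPM on the S side and 2.70 CPM on the other in ground, and 40.7 and 4.13 CPM in running. The nucleotide synthesis genes Rrm1, Rrm2 and Tyms differed least between the sides, with log2 ratios of -0.25, -0.31 and -0.34 in ground and -0.29, -0.47 and -0.54 in running. Of the mitotic genes, Ube2c, which encodes the ubiquitin-conjugating enzyme of the anaphase-promoting complex, was the most one-sided, with 105 CPM on the S side and 596 CPM on the other in ground, and 85.3 and 552 CPM in running. Mki67, Ccna2 and Ccnb2 had the smallest ratios in ground, at 0.91, 0.90 and 0.90, and stood at 0.88, 1.01 and 0.85 in running. Their transcripts were thus also found on the S side, where Mki67 reached 524 CPM in the ground library and 504 CPM in the other.

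**Figure D1:**
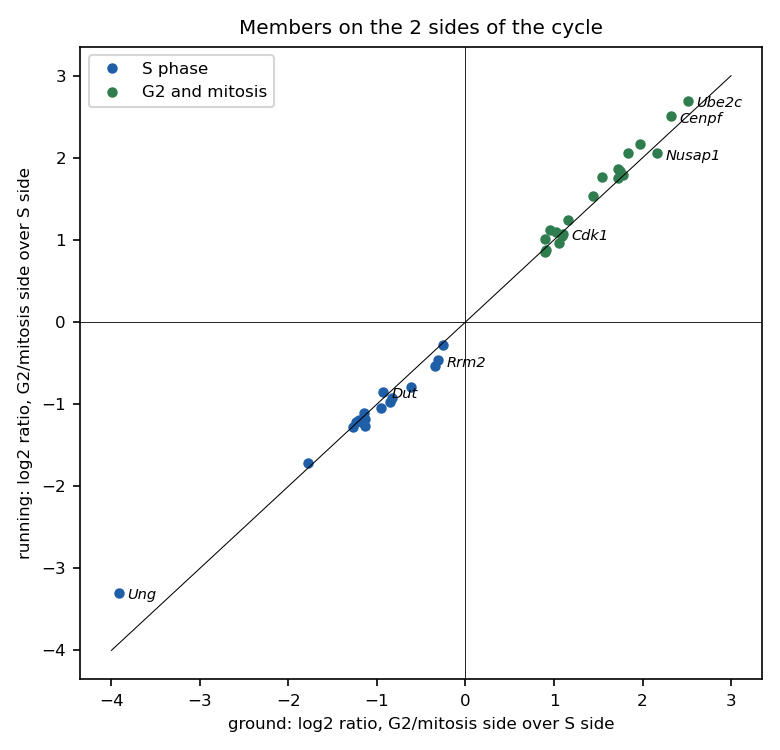
Each point is 1 of the 38 genes; the axes give its log2 ratio of CPM between cycling cells on the G2 and mitosis side and on the S side, in ground (horizontal) and in running (vertical), with the line of equality. All 18 S phase genes (blue) lie below 0 and all 20 G2 and mitosis genes (green) above 0 in both libraries, with Ung at -3.92 in ground and -3.30 in running.

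The share of cycling cells was lower in the running library. By the first call it was 34.9% (33.9 to 36.0) of ground and 31.2% (30.2 to 32.2) of running cells, a ratio of 0.892 (0.854 to 0.932). By the strict call it was 23.0% (22.04 to 23.9) and 19.2% (18.4 to 20.1), a ratio of 0.837 (0.788 to 0.889). Without thinning, 69.1% and 62.7% passed the first call, because deeper cells pass it more often. The makeup of the libraries moved with this share, since granulocyte-monocyte progenitor-like cells numbered 364 of 8666 ground and 222 of 9080 running cells. Among cells deep enough for the call they numbered 313 of 7758 and 217 of 8296, and nearly all of these passed the first call. With each class weighted by its share of the ground library, the ratio was 0.957 by the first and 0.952 by the strict call.

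Of the classes with an appreciable cycling share, only immature neutrophil-like cells had a share ratio whose interval lay below 1 by both calls. The monocyte-like and erythroid-like ratios also lay below 1 by both calls, with intervals that include 1. Immature neutrophil-like cells cycled at 25.8% in ground and 22.6% in running, a ratio of 0.874 (0.785 to 0.972), and at 19.9% and 16.2% by the strict call, a ratio of 0.812 (0.714 to 0.924). B-cell precursor-like cells cycled at 49.0% and 55.4%, a ratio of 1.13 (1.001 to 1.28), with 30.2% and 35.1% and a ratio of 1.16 (0.969 to 1.40) by the strict call, whose interval includes 1. The makeup of that class moved with this share, since cluster 14, in which 66.7% of ground and 71.5% of running cells cycled, made up 13.02% of it in ground and 22.7% in running. Within clusters 14, 15 and 18 the ratios of the cycling share were 1.07 (0.869 to 1.33), 0.992 (0.975 to 1.01) and 1.11 (0.852 to 1.43), each with an interval that includes 1. Cluster 18 gave 77 of the 216 ground and 86 of the 292 running B-cell precursor-like cells called cycling. Those cells held a median of 1 member UMI in each library. By the strict call 2.48% and 2.46% of cluster 18 passed, so its share by the first call is not read as division. In monocyte-like cells the shares were 45.5% and 43.4%, with a ratio of 0.955 (0.867 to 1.05), and in erythroid-like cells 95.2% and 93.8%, with a ratio of 0.985 (0.951 to 1.02). Nearly all granulocyte-monocyte progenitor-like cells passed the first call, at 98.4% and 98.6% with a ratio of 1.002 (0.981 to 1.02). By the strict call the shares were 90.4% and 84.3%, a ratio of 0.933 (0.872 to 0.998). The cells of this class that failed the strict call still held medians of 76 and 79.5 member UMIs in ground and running. Over all classes, cells that failed it held a median of 1. The strict ratio of this class is therefore not read as fewer dividing cells. The B cell-like and T cell-like shares of 31.3% and 35.7% in ground came from cells with medians of 2 and 3 member UMIs, and are not read as division. By the strict call they were 4.07% and 2.55% in ground and 4.35% and 5.32% in running.

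**Figure D2:**
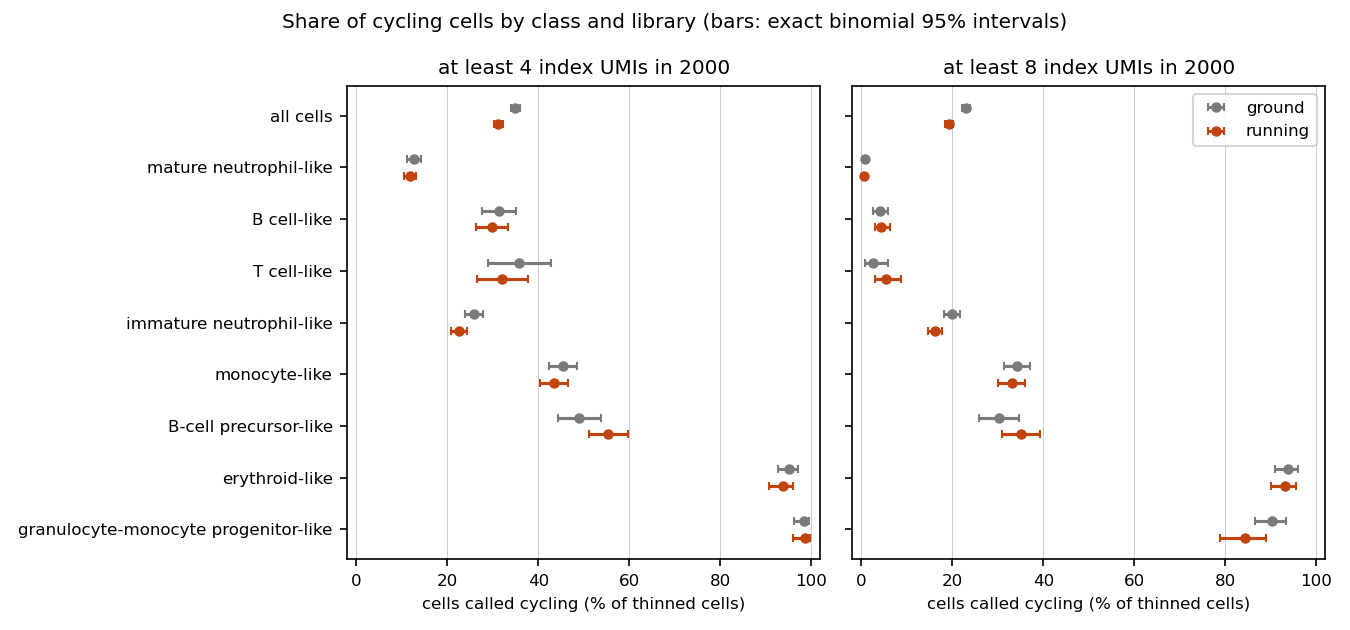
Share of cells called cycling (horizontal axis, percent of cells with at least 2000 UMIs) by class in the ground (grey) and running (orange) library, with exact binomial 95% intervals, for at least 4 (left) and at least 8 (right) index UMIs. Mature neutrophil-like cells show the background, 12.6% and 11.7% on the left and under 1% on the right, and erythroid-like and granulocyte-monocyte progenitor-like cells lie above 80% in both panels.

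Within the immature neutrophil-like class, the clusters differed in how their shares compared. Cluster 7, led by Fcnb and Camp, cycled at 99.0% in ground and 99.2% in running. Cluster 8, led by Orm1, Ltf and Camp, cycled at 22.2% (18.1 to 26.8) of 378 ground and 11.1% (7.84 to 15.2) of 305 running cells, and at 10.8% against 2.30% by the strict call, a ratio of 0.212 (0.0963 to 0.465). The more mature clusters 0 and 1 lay at 4.61% and 5.25% in ground and 6.26% and 6.75% in running, below the mature neutrophil-like background. Cluster 8 cells had a median of 11308 UMIs in ground and 9519 in running. The 41 ground cells that passed the strict call were shallower, with a median of 6072 UMIs against 11633 in those that failed it. The 7 running cells that passed had a median of 9031 UMIs against 9577.5. Cells that passed held medians of 22 member UMIs in ground and 31 in running. The part of this depth difference in the ratio was not tested. Cluster 7 made up 18.9% of the class in ground and 16.3% in running, and cluster 8 made up 18.3% and 14.4%.

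Over all cells, the summed S phase genes gave 1809 CPM in the ground library and 1757 CPM in the running library, a log2 ratio of -0.04 (-0.05 to -0.03). The G2 and mitosis genes stood at 2481 and 2412 CPM, also a log2 ratio of -0.04 (-0.05 to -0.03). The UMIs of a 3′ library count transcripts irrespective of their length. A gene is called higher or lower here if it had at least 50 UMIs and differed by at least 0.32 on the log2 scale. None of the 38 genes was called in either direction, although 15.4% of all genes tested were called higher and 4.7% lower, and the median log2 ratio of all genes was 0.08. With the class shares of ground, the ratios were 0.909-fold for the S phase and 0.936-fold for the G2 and mitosis genes. These sizes depend on the scaling. As a mean of CPM over cells, which weights every cell equally, the log2 ratios of the 2 lists were both -0.24, and relative to the median of all genes they were both -0.12. Cells of high UMI count decide the sign of the second list. Without cells above 30000 UMIs, an alternative chosen after the data were seen, the log2 ratio of the G2 and mitosis genes was 0.04, while that of the S phase genes stayed below 0 at -0.06.

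In cycling cells, the S phase genes summed to 2976 CPM in ground and 2862 CPM in running (log2 ratio -0.06, -0.07 to -0.05), and the G2 and mitosis genes to 4214 and 4088 CPM (-0.04, -0.05 to -0.03). A cycling cell held on average 51.7 and 50.05 UMIs of the first list and 73.2 and 71.5 UMIs of the second. No member was called, against 12.2% of all genes called higher and 5.24% called lower. Cells called cycling by the strict rule gave log2 ratios of -0.05 and -0.03. As a mean of CPM over cells the log2 ratios were -0.16 and -0.11. With the class shares of ground, the CPM sums in cycling cells were 0.902-fold and 0.937-fold.

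Among the genes of nucleotide supply, Rrm2, which encodes the regulated subunit of ribonucleotide reductase, was the lowest member, with 12489 UMIs and 265 CPM in ground and 9890 UMIs and 219 CPM in running (log2 ratio -0.28, -0.32 to -0.24). Its partner Rrm1 stood at 225 and 215 CPM (-0.07), and Tyms, which encodes thymidylate synthase, at 151 and 135 CPM (-0.16, -0.21 to -0.11). Dut, which encodes the enzyme that removes dUTP and so keeps uracil out of DNA, was the highest member, with 356 CPM in ground and 383 CPM in running (0.11, 0.08 to 0.14). Its direction turned with the scaling and the cells used, to -0.08 as a mean of CPM over cells and to -0.08 without cells above 30000 UMIs. Ung was scarce, at 16.8 and 17.1 CPM, with an interval from -0.12 to 0.17 around 0.03. Slbp stood at 225 and 221 CPM (-0.03).

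Of the replication machinery, Pcna was among the 3 most abundant S phase genes and the third lowest by ratio, with 363 and 323 CPM (-0.17, -0.20 to -0.14). The 6 subunits of the MCM2-7 helicase had unequal ratios. Mcm2 was lower, with 123 and 108 CPM (-0.19, -0.25 to -0.14), Mcm5, Mcm7 and Mcm4 lay between -0.05 and -0.03, and Mcm6 and Mcm3 at 0.03 and 0.04, with 170 and 173 CPM for Mcm6 and 163 and 168 CPM for Mcm3. Gins2, a subunit of the GINS complex that travels with the helicase, stood at 36.3 and 37.5 CPM (0.05, -0.05 to 0.14), and Cdc6, the loader of the helicase, at 61.0 and 58.0 CPM (-0.07, -0.15 to 0.00). The chromatin genes of S phase lay on either side of 0. Uhrf1, which couples DNA methylation to replication, stood at 131 and 125 CPM (-0.07), the helicase gene Hells at 87.3 and 88.4 CPM (0.02), and Cdca7, which encodes the partner of HELLS, at 98.9 and 105 CPM (0.08, 0.02 to 0.14).

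Among the mitotic genes, 3 were most abundant: Mki67, the proliferation marker, at 808 CPM in ground against 767 CPM in running (-0.07, -0.10 to -0.05), Top2a, the topoisomerase that untangles sister chromatids, at 596 and 588 CPM (-0.02), and Ube2c at 409 and 381 CPM (-0.10, -0.13 to -0.07). The lowest ratios were those of Aurka, the spindle pole kinase, at 64.0 and 57.8 CPM (-0.15, -0.22 to -0.07), and of Tacc3, a spindle protein that aurora A phosphorylates, at 95.7 and 86.6 CPM (-0.14, -0.21 to -0.08). Cdk1 stood at 155 and 144 CPM (-0.10, -0.15 to -0.05), with cyclin A2 (Ccna2) at 160 and 150 CPM (-0.10), whereas the B cyclins Ccnb1 and Ccnb2 lay at 0.01 and 0.01, with 152 and 154 CPM for Ccnb2. Birc5, the survivin subunit of the chromosomal passenger complex, stood at -0.07 and its kinase Aurkb at -0.04. The checkpoint kinase Bub1, the polo kinase Plk1, the spindle proteins Nusap1, Hmmr and Tpx2 and the kinetochore motor Cenpe lay between -0.05 and 0.00, each with an interval that includes 0. The highest ratios were those of the kinetochore gene Cenpf at 218 and 227 CPM (0.06, 0.02 to 0.10), the spindle kinesin Kif11 at 149 and 151 CPM (0.02) and Cdc20 at 102.2 and 103 CPM (0.02). As a mean of CPM over cells the log2 ratio of Cenpf was -0.03.

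**Figure D3:**
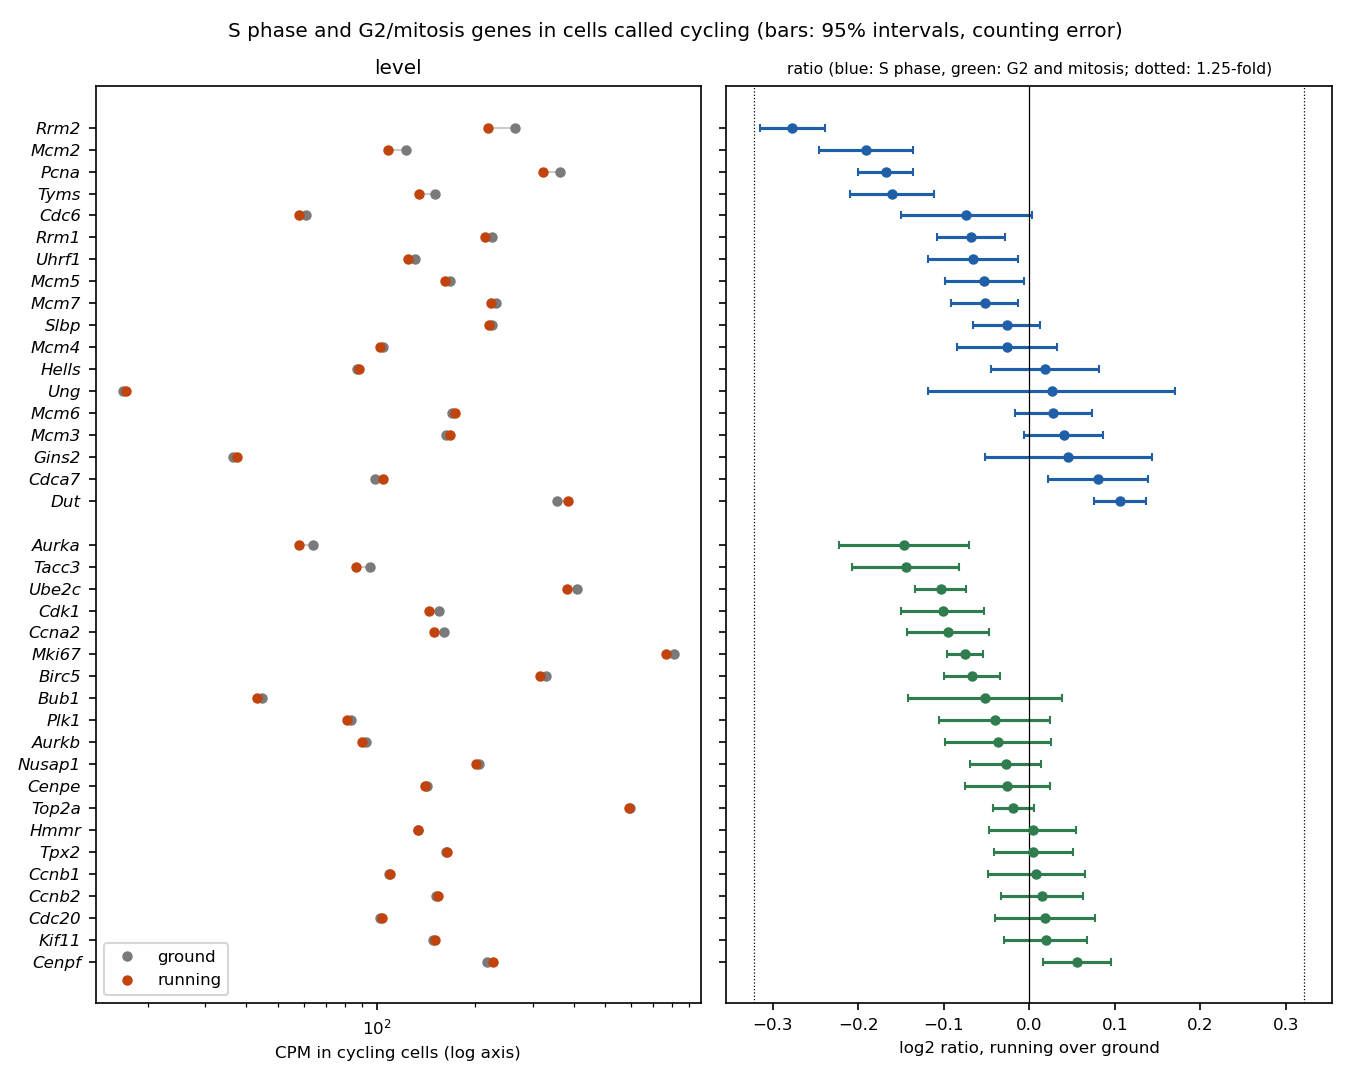
Level of each gene in cells called cycling (left, CPM on a log axis, ground grey and running orange) and its log2 ratio of running over ground with 95% counting intervals (right, S phase blue, G2 and mitosis green). All ratios lie inside the dotted lines at 0.32 on either side of 0, from -0.28 for Rrm2 to 0.11 for Dut.

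Outside the cycle the levels were low and the picture differed. The S phase genes summed to 202 CPM in ground and 223 CPM in running (0.15, 0.10 to 0.19), and 3 of the 18 were called higher and 1 lower, against 20.2% and 4.75% of all genes. Cdca7 stood at 11.02 and 16.8 CPM (0.60, 0.41 to 0.80), and Gins2 at 2.04 and 3.07 CPM with only 69 and 99 UMIs. The G2 and mitosis genes summed to 109 and 97.2 CPM (-0.16, -0.23 to -0.10), with 6 of 20 called lower, among them Nusap1 at 4.17 and 2.67 CPM (-0.64, -1.05 to -0.25), and 1 called higher. That gene was Aurkb, at 2.78 and 4.59 CPM (0.73, 0.34 to 1.11), from 94 and 148 UMIs. These cells can include dividing cells that the index genes missed, so fewer such cells and a lower level per cell cannot be told apart.

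In monocyte-like cycling cells the S phase genes were lower in running and the G2 and mitosis genes slightly higher. The S phase sum was 2234 CPM in 477 ground cells and 1912 CPM in 431 running cells (-0.22, -0.25 to -0.19), with all 18 genes below 0 and 5 called lower, against 10.1% of all genes. The G2 and mitosis sum was 4834 and 5044 CPM (0.06, 0.04 to 0.08), with 12 of 20 genes above 0 and none called, against 10.3% called higher. Of the S phase genes, Cdc6 was lowest at 32.8 and 23.8 CPM (-0.47, -0.74 to -0.20), Tyms stood at 148 and 113 CPM (-0.39, -0.52 to -0.27), and Rrm2, Uhrf1 and Hells were also called lower, while Mcm3 was the highest at 137 and 133 CPM (-0.05, -0.17 to 0.07). Of the mitotic genes, Cenpf was highest at 224 and 273 CPM (0.28, 0.19 to 0.37) and Cdk1 lowest at 164 and 141 CPM (-0.22, -0.34 to -0.11).

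The index genes placed the monocyte-like cycling cells in the same order. On the G2 and mitosis side lay 63.1% (58.6 to 67.4) of them in ground and 70.3% (65.7 to 74.6) in running. By the strict call these were 68.7% (63.6 to 73.5) and 75.9% (70.9 to 80.4). The intervals of the libraries overlap by both calls. Nearly all of the signal came from cluster 6, led by F13a1 and Fn1, which held 89.995% of the member UMIs of the class in ground and 92.996% in running, and of which 99.4% and 97.9% of cells cycled. There the S phase sum was 2531 CPM in ground and 2114 CPM in running (-0.26, -0.29 to -0.23), with 7 of 18 called lower against 11.2% of all genes (10.2% higher). Median depth of cluster 6 was 21901 UMIs in ground and 19468.5 in running. Cluster 16, with 8.02% and 5.63% of the member UMIs of the class, differed. Among its cycling cells, 97 in ground and 82 in running, 15 of 20 G2 and mitosis genes had intervals below 0 and 0 above. Of its S phase genes, 3 had intervals above 0 and 1 below. Those cells held medians of 7 and 4 member UMIs. The strict call gave -0.23 for the S phase and 0.05 for the G2 and mitosis genes of the class. Over the main and 12 other processing settings, the S phase ratio of the class lay between -0.32 and -0.21.

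In B-cell precursor-like cycling cells the G2 and mitosis genes had a lower summed CPM in running, and few of them were called. This sum was 6286 CPM in 216 ground and 5649 CPM in 292 running cells (-0.15, -0.19 to -0.12), with 13 of 20 genes below 0 and 2 called lower, Bub1 at 76.6 and 56.5 CPM (-0.44, -0.76 to -0.12) and Cenpf at 459 and 349 CPM (-0.40, -0.52 to -0.27). In this class 21% of all genes were called lower and 8.51% higher. The share of the G2 and mitosis genes called lower was thus below that of all genes. Counted as UMIs per cycling cell, the G2 and mitosis genes were higher in running, at means of 53.9 and 67.2. By the strict call these means were 87.1 and 105.4. Median depth of the cells called cycling by the first call was 6019.5 UMIs in ground and 7470 in running. The S phase genes summed to 3924 and 4089 CPM (0.06, 0.02 to 0.10), and by the strict call to 4518 and 4511 CPM (0.00, -0.04 to 0.04). Without cells above 30000 UMIs the log2 ratio of that sum was -0.02, so its direction is not settled. By the first call, 3 S phase genes were called higher, Tyms at 121 and 160 CPM (0.41, 0.18 to 0.64), Hells at 149 and 193 CPM (0.37, 0.17 to 0.58) and Cdca7 at 154 and 193 CPM (0.33), and 1, Ung, was called lower, at 37.8 and 29.4 CPM, with an interval from -0.82 to 0.10. Plk1 was the highest mitotic gene, at 94.96 and 107 CPM (0.17, -0.10 to 0.43). The G2 and mitosis ratio lay between -0.29 and -0.06 over the settings tried. The S side held 32.4% of these cells in ground and 40.1% in running, and 32.3% and 39.5% by the strict call. The G2 and mitosis side held 59.3% (52.4 to 65.9) and 53.1% (47.2 to 58.9) by the first call, with overlapping intervals.

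The cluster of this class that held most of its member UMIs was cluster 15, with 67.9% in ground and 59.5% in running, in which 99 of 99 thinned ground cells and 118 of 119 running cells cycled. Its G2 and mitosis sum was 9102 CPM in ground and 7373 CPM in running (-0.30, -0.34 to -0.26), with 5 of 20 genes called lower, among them Cenpf at 669 and 426 CPM (-0.65, -0.81 to -0.50), against 22.6% of all genes (12.7% higher), a share near that of all genes. In cluster 18 the G2 and mitosis sum in cells called cycling was 944 and 237 CPM from only 224 and 63 UMIs. The S phase sum of cluster 15 was 4547 and 4616 CPM (0.02, -0.03 to 0.08). Over all B-cell precursor-like cells, cycling or not, the S phase sum was 2909 and 3323 CPM (0.19, 0.15 to 0.23). The makeup of the class moved with this value, since cluster 18, led by Rag1, was 66.1% of the class in ground and 56.2% in running, and cluster 14, led by Vpreb1 and Igll1, was 13.02% and 22.7%. Their part in the result was not tested.

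**Figure D4:**
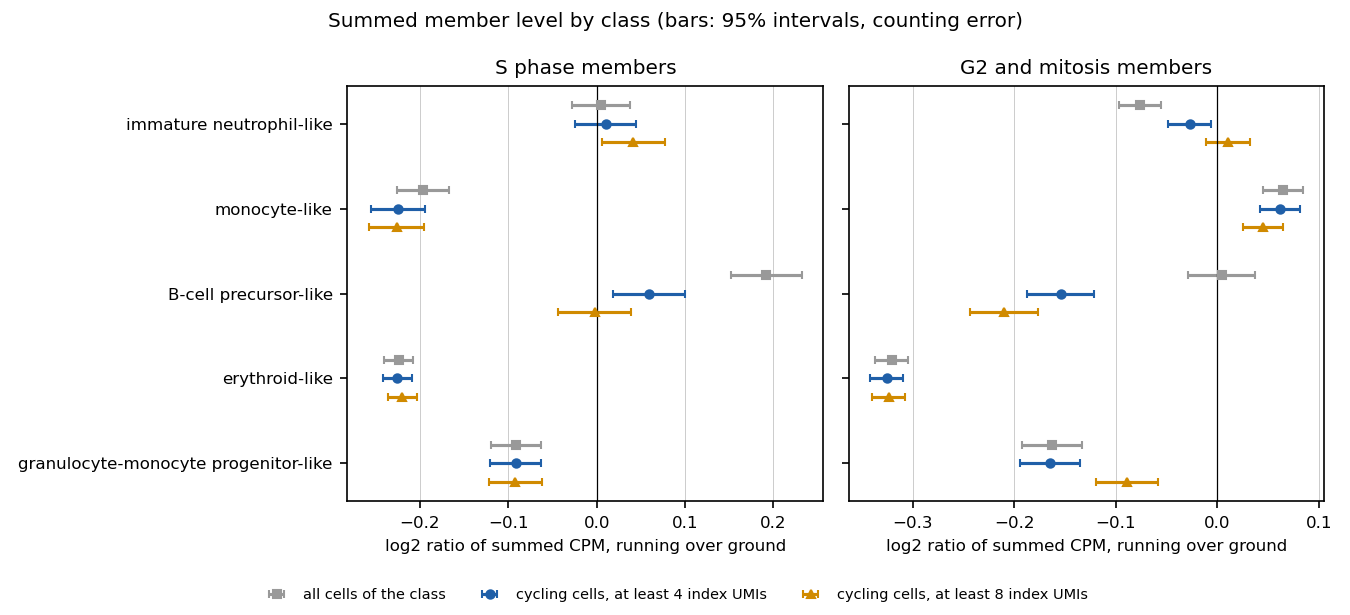
Log2 ratio (running over ground) of the summed CPM of the S phase genes (left) and of the G2 and mitosis genes (right) in 5 classes, over all cells of the class (squares), in cells with at least 4 (circles) and at least 8 index UMIs (triangles), with 95% counting intervals. In monocyte-like cells the S phase ratio is -0.22 while the G2 and mitosis ratio is 0.06, and in erythroid-like cells both lie below 0.

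Erythroid-like cells were the richest source of the members and held 41.4% of all S phase and 32.7% of all G2 and mitosis UMIs in ground. In their cycling cells the S phase genes summed to 5793 CPM in 401 ground and 4954 CPM in 318 running cells (-0.23, -0.24 to -0.21), and the G2 and mitosis genes to 6281 and 5011 CPM (-0.33, -0.34 to -0.31). All 20 mitotic genes lay below 0 and 7 were called lower, and 16 of 18 S phase genes lay below 0 and 4 were called lower, against 12% of all genes (16.6% higher). Mki67 was lowest at 1527 and 1093 CPM (-0.48, -0.52 to -0.45), and Plk1 was highest of the mitotic list at 108 and 103 CPM (-0.07, -0.19 to 0.05). Rrm2 stood at 566 and 412 CPM (-0.46, -0.51 to -0.40) and Pcna at 722 and 526 CPM (-0.46, -0.51 to -0.41), whereas Dut stood at 676 and 747 CPM (0.14, 0.10 to 0.19) and Cdca7, the highest, at 77.9 and 89.8 CPM (0.20, 0.07 to 0.34).

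Mean member UMIs per cycling erythroid-like cell went the other way from these CPM sums. They were 151 in ground and 183 in running for the S phase genes, and 164 and 185 for the G2 and mitosis genes. Median depth of these cells was 23062 UMIs in ground and 33552 in running. The makeup of the erythroid-like class moved with the lower CPM sums. Cluster 25, whose cells had medians of 54348 and 58740 UMIs and were led by Car1 and Car2, was 14.0% of the class in ground and 24.3% in running, and 40.5% and 60.8% of its UMIs. Its mitotic sum was 3991 CPM in ground, against 8514 CPM in cluster 12, which was led by globin genes. Without cells above 30000 UMIs the class ratios were -0.07 for the S phase and -0.05 for the G2 and mitosis genes, and as a mean of CPM over cells -0.10 and -0.17. Within clusters the G2 and mitosis ratios were closer to 0, at -0.12 (-0.14 to -0.10) in cluster 12, -0.09 (-0.17 to -0.01) in cluster 13 and -0.13 (-0.16 to -0.10) in cluster 25. The S phase ratios were -0.04 (-0.06 to -0.01), -0.10 (-0.17 to -0.03) and -0.22 (-0.25 to -0.20). The share of cycling cells was 91.0% and 86.8% in cluster 12 and 98.6% or more in clusters 13 and 25 in both libraries. In cluster 13 this share leaves out 117 of 240 ground and 126 of 199 running cells, which were too shallow for the call.

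Granulocyte-monocyte progenitor-like cells, all of cluster 21 and led by Elane, Prtn3 and Mpo, had lower sums of both lists in running. The S phase sum was 2563 CPM in 308 ground and 2406 CPM in 214 running cycling cells (-0.09, -0.12 to -0.06), and the G2 and mitosis sum 2476 and 2209 CPM (-0.16, -0.19 to -0.14), which was -0.09 by the strict call. Rrm2 was lowest and the only S phase gene called, at 195 and 143 CPM (-0.45, -0.56 to -0.34), and Ung was highest at 20.5 and 23.6 CPM (0.21, -0.10 to 0.51). Aurka at 50.4 and 38.2 CPM (-0.40, -0.62 to -0.18) and Cdk1 at 134 and 106 CPM (-0.34, -0.47 to -0.20) were called lower, against 8.26% of all genes (9.55% higher), and Cenpf was highest at 95.5 and 105 CPM (0.14, -0.003 to 0.28). The class had 364 ground and 222 running cells. With called doublets kept, its G2 and mitosis ratio was 0.04, the opposite sign, and with a minimum of 1000 UMIs per cell it was -0.002.

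Immature neutrophil-like cycling cells had ratios near 0. The S phase sum was 1539 CPM in 543 ground and 1550 CPM in 485 running cells (0.01, -0.02 to 0.05), and the G2 and mitosis sum 4091 and 4015 CPM (-0.03, -0.05 to -0.01), with no member called against 14% of all genes higher and 5.74% lower. Tyms was lowest at 103 and 84.4 CPM (-0.29, -0.44 to -0.15) and Hells, at 33.3 and 40.8 CPM (0.29, 0.06 to 0.52), was highest apart from Ung, which had 5 UMIs in each library. Aurka was the lowest mitotic gene at 61.5 and 52.5 CPM (-0.23, -0.41 to -0.04) and Cenpf the highest at 225 and 251 CPM (0.16, 0.07 to 0.25). Ung was nearly silent in the class, with 10 UMIs among all its ground and 7 among all its running cells. The mitotic sum exceeded the S phase sum in both libraries, and 80.1% of the ground and 79.2% of the running cycling cells lay on the G2 and mitosis side. Mature neutrophil-like cells that passed the call lay on that side at 90.1% in ground and 88.0% in running. None of these values is read as a share of cells in that phase.

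Across the 5 classes, Rrm2 and Cenpf differed from each other in pattern. Rrm2 was below 0 in all 5, from -0.05 in B-cell precursor-like to -0.46 in erythroid-like cells, with an interval that includes 0 in the B-cell precursor-like cells. Cenpf lay above 0 in the 3 myeloid classes (0.28 in monocyte-like, 0.16 in immature neutrophil-like and 0.14 in granulocyte-monocyte progenitor-like cells) and below 0 in the B-cell precursor-like (-0.40) and erythroid-like cells (-0.45). Tyms lay below 0 in 4 classes and at 0.41 in B-cell precursor-like cells. These genes were singled out after their values were seen.

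**Figure D5:**
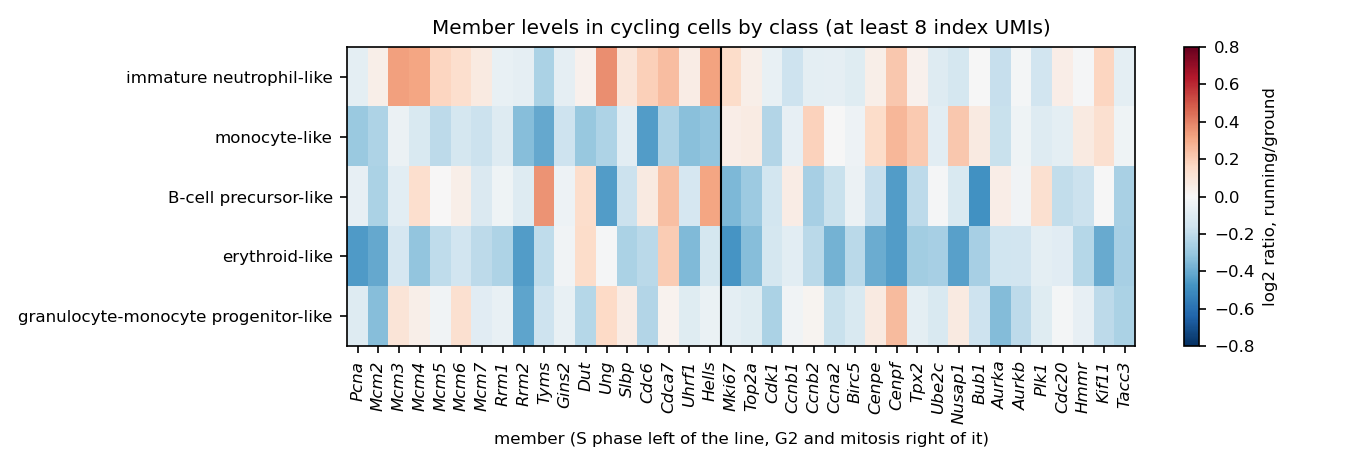
Log2 ratio (running over ground, colour scale from -0.8 blue to 0.8 red) of each of the 38 genes in cycling cells of 5 classes, called with at least 8 index UMIs. The row of monocyte-like cells is blue for all 18 S phase genes, and the row of erythroid-like cells is blue for all 20 G2 and mitosis genes; the cell of Ung in immature neutrophil-like cells rests on 4 UMIs in each library.

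Stem and multipotent progenitor-like cells (cluster 20, 110 ground and 121 running cells, led by Cd34, Muc13 and Adgrg1) were below the size set for comparing classes, but had enough cycling cells to be described. Their cycling share was 81.3% and 84.9%, and 62.6% and 62.2% by the strict call. In 87 ground and 101 running cycling cells the G2 and mitosis genes summed to 2517 and 3239 CPM (0.36, 0.32 to 0.41), with all 20 genes above 0 and 14 called higher, against 14.5% of all genes (10.3% lower). Nusap1 was highest at 91.8 and 155 CPM (0.76, 0.52 to 1.001) and Tacc3 lowest of those with at least 100 UMIs at 59.3 and 59.5 CPM (0.004). The S phase genes summed to 2727 and 2439 CPM (-0.16, -0.21 to -0.11), with Ung at 39.7 and 25.1 CPM (-0.66) and Gins2 at 35.4 and 43.7 CPM (0.30). One running cell of this class held 1562 UMIs of the G2 and mitosis genes, of 9101 in the class, and the highest ground cell held 762 of 5951.

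In T cell-like cells the mitotic genes rested on a handful of cells. They summed to 248 CPM in 206 ground and 868 CPM in 289 running cells (1.81, 1.62 to 2.002), but 9 running cells with at least 10 such UMIs held 1449 of the 1602 UMIs, and 2 ground cells held 145 of 264. Without those cells the levels were 114 CPM in ground and 92.0 CPM in running. In T cell-like cells called cycling, Cenpf stood at 10.7 and 157 CPM and Ube2c at 24.1 and 186 CPM, from 4 and 107 and from 9 and 127 UMIs, and Top2a at 85.8 and 351 CPM. By the same count, 16 of 666 ground and 17 of 665 running B cell-like cells held at least 10 mitotic UMIs, and none of the 2283 ground and 2609 running mature neutrophil-like cells did. A count of 0 allows at most 0.131% of the former and 0.115% of the latter. In B cell-like cells called cycling, Ube2c was lowest at 110 and 59.4 CPM (-0.89, -1.42 to -0.37) and Nusap1 highest at 72.6 and 109 CPM (0.58, 0.08 to 1.09).

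Of 40 genes that control entry into and passage through the cycle, 3 were called higher and 2 lower in cycling cells, close to the background given above, and their median log2 ratio was 0.00. The lowest with at least 100 UMIs were Cdkn2d, an inhibitor of CDK4 and CDK6, at 131 and 98.1 CPM (-0.41, -0.47 to -0.36), the S phase cyclin Ccne2 at 53.9 and 42.5 CPM (-0.34, -0.43 to -0.26), the phosphatase gene Cdc25b at 40.4 and 34.0 CPM (-0.25) and the transcription factor gene E2f2 at 118 and 99.4 CPM (-0.25, -0.30 to -0.19). The highest were the D-type cyclin Ccnd2 at 59.0 and 75.4 CPM (0.35, 0.28 to 0.43), the antiproliferative gene Btg2 at 170 and 216 CPM (0.35, 0.31 to 0.39), Myc at 23.8 and 28.7 CPM (0.27) and E2f3 at 22.8 and 27.0 CPM (0.24).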

How the data were processed

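The authors deposited unnormalised UMI counts for each gene in each barcode, made with Cell Ranger 5.0.0 per the file headers from Chromium 3′ v3 libraries per the labels' protocols. The submitters' processing notes also name STAR and mm10. Cells needed at least 500 UMIs, 250 genes and no more than 10% mitochondrial UMIs. Scrublet doublets (243 ground, 100 running) were removed. Both libraries were clustered jointly in scanpy 1.11.5 with Python 3.11.15 (2000 variable genes without cell cycle and histone genes, 30 principal components, 15 neighbours, Leiden resolution 1 in igraph 0.11.9), giving 33 clusters and 16 named classes. A cluster was named from markers among its 10 leading genes, with at least 3 markers detected. One cluster of 13 ground and 17 running cells stayed unnamed.

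UMIs were summed per library and class and scaled to CPM. Ratios carry exact conditional binomial intervals, shares Clopper-Pearson intervals and share ratios log-normal intervals, all at 95%. Full values were given for the 3 most abundant and the 4 highest and 4 lowest members of each list in cycling cells. They were also given for the highest and lowest with at least 100 UMIs in each class. Members and lists were chosen with earlier results of these data known. The interval procedure was run on simulated counts drawn independently for each gene. The intervals of the CPM ratios treat UMIs as independent and so leave out their clumping in single cells. The simulation left this clumping out too, so it could not check the intervals for it. Gene positions are from RefSeq annotation of GRCm38.p6. No promoter sequence was used here, so the promoter motif comparison was not run.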

Additional observations from a re-analysis of the deposited data

Results flagged for a closer look

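In cycling cells, the ratios of summed CPM (running over ground) pointed in opposite directions in different classes, which is why these values are listed. They are not ratios of UMIs per cell, which went the other way in erythroid-like cells and, for the G2 and mitosis genes, in B-cell precursor-like cells. The difference between classes was not tested, each class comes from 1 library per group, and intervals cover counting error only. For the S phase genes the log2 ratio was -0.22 in monocyte-like, -0.23 in erythroid-like and -0.091 in granulocyte-monocyte progenitor-like cells, and 0.059 in B-cell precursor-like, 0.21 in B cell-like and 0.39 in T cell-like cells. For the G2 and mitosis genes it was -0.027 in immature neutrophil-like, -0.15 in B-cell precursor-like, -0.33 in erythroid-like and -0.16 in granulocyte-monocyte progenitor-like cells, and 0.061 in monocyte-like, 0.22 in B cell-like and 2.15 in T cell-like cells. The B cell-like and T cell-like values rest on few cells with many of these UMIs.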

How the results depend on the processing

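No paired analysis was possible because each group has 1 library, and no replicate was left out for the same reason. A value counts as moved when it left the 95% counting interval of the main value. Over the other settings, 131 values of the main comparisons stayed inside, 47 moved (such as the cycling share ratio of 0.837 at 8 index UMIs) and 2 reversed.

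The log2 ratios follow in the order sum and member median of the S phase genes, then of the G2 and mitosis genes. Over all cells they were -0.12, -0.11, -0.12 and -0.11 when centred on the median of all genes, -0.24, -0.24, -0.24 and -0.23 as a mean of CPM over cells, and -0.030, -0.016, -0.031 and -0.018 with one doublet threshold for both libraries. With doublets kept, the sums were -0.032 and -0.029 and the G2 and mitosis median -0.012. With at most 30000 UMIs per cell they were -0.063, -0.057, 0.043 and 0.041, so the G2 and mitosis values reversed. In cycling cells they were -0.11, -0.090, -0.095 and -0.083 centred, and -0.16, -0.15, -0.11 and -0.094 as a mean over cells. They were -0.043, -0.027, -0.029 and -0.019 thinned to 1000 UMIs, and -0.041, -0.025, -0.031 and -0.020 with one doublet threshold. With at most 30000 UMIs the S phase values were -0.17 and -0.16. The G2 and mitosis values were -0.056 and -0.043 at 2 index UMIs and -0.025 and -0.019 at 8.

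The cycling share ratio was 0.972 at 2 index UMIs over all cells and 0.989 in immature neutrophil-like cells. In granulocyte-monocyte progenitor-like cells it was 0.966 with doublets kept, 0.980 thinned to 1000 UMIs and 0.933 at 8 index UMIs. At 8 it was 2.09 in T cell-like and 0.679 in mature neutrophil-like cells. Single values also reversed. Dut in cycling cells was -0.078 as a mean over cells and -0.079 with at most 30000 UMIs, and Cenpf -0.030 as a mean over cells. The S phase sum of B-cell precursor-like cells was -0.0022 at 8 index UMIs and -0.015 with at most 30000 UMIs. The G2 and mitosis sum of immature neutrophil-like cells was 0.013 with cell cycle genes kept in clustering, 0.011 at 8 index UMIs, 0.0074 with one doublet threshold and 0.0036 with at most 30000 UMIs. That of granulocyte-monocyte progenitor-like cells was 0.037 with doublets kept. The causes were not tested. The settings on one doublet threshold and on 30000 UMIs were chosen after the data were seen. Promoter motifs were not run.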
